A study of Mus musculus with 2 samples.

Results

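Immediate-early and early response genes were examined in the ventral prostate, a secretory, androgen-dependent lobe of the mouse gland, with and without U19/Eaf2. The set held 39 genes: a probe set counted as a member when the platform annotation gave it exactly 1 gene symbol and that symbol was on the list. All 39 genes had such a probe set, 76 probe sets in all, out of 18193 genes with a single-symbol probe set on the array. The probe set brightest on average (mean log2 signal) stood for each gene, and the others served as a check.

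Both samples came from 3-month-old males on the C57BL/6J background, and both were ventral prostate. One sample had the genotype U19/Eaf2 +/+ and the other U19/Eaf2 -/-, and nothing else in the labels told them apart. Each group held 1 sample on 1 Affymetrix array, so that no test between genotypes was possible and every value below describes these 2 arrays. U19/Eaf2 encodes a nuclear partner of the ELL transcription elongation factors that androgen induces in the prostate. The series asked which transcripts differ in the gland when it is lost. The sample titles speak of prostates in the plural but do not say whether animals were pooled.

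Immediate-early genes are transcribed within minutes of a growth factor, stress or hormone signal from factors already present in the cell, without new protein synthesis. The best known routes to them are ERK and p38 kinases, acting on SRF with its ternary complex partners and on CREB, and NF-kappaB. Many of the products are transcription factors such as FOS, JUN and EGR1 that switch on later genes, and others, such as the DUSP phosphatases, ZFP36 and IkappaB-alpha, shut the signal down again. Their mRNAs are short-lived, and many of the genes also respond to tissue handling.

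The deposited values were linear signals, scaled on each array to a trimmed mean of 500.0. The floor was the median of all non-control signals, 166. Genes with at least 1 array at the floor or above were measured, or entered. Any signal under the floor was set to the floor, so that such a fold is a bound. The Eaf2 probe set read 691 in the wild type and 702 in the other sample, a log2 ratio of 0.02. The labels do not say which part of the transcript was deleted. This reading checks nothing if the probe set lies outside that part, so the second array is called the array labelled knockout. Of the ventral prostate secretory markers, 7 of 7 with a probe set were above the floor, with summed signals of 150325 and 156284. The 3' over 5' signal ratio of Actb, a guide to RNA integrity, was 1.25 in the wild type and 1.65 on the array labelled knockout. That of Gapdh was 0.71 and 0.85.

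Promoter sequences are shown for 6 members because they carry the motifs through which the pathway is known to act and include Dusp1 and Nfkbia, with the lowest and the highest ratio among members above the floor on both arrays. Each run gives the 250 bases before the transcription start, from RefSeq on build GRCm38.p6, read 5′ to 3′ on the gene's strand. Capitals mark matches, on either strand, to any of 6 motifs. These were the CArG box bound by SRF, the CRE bound by CREB (TGACGTCA), the AP-1 site (TGANTCA), the EGR site (GCGNGGGCG), the NF-kappaB site and the E-box (CACGTG). No matches overlapped in these promoters.
Dusp1, chr17:26508473-26508722 on the minus strand, with a CRE 143 to 136 bases and an E-box 126 to 121 bases before the start: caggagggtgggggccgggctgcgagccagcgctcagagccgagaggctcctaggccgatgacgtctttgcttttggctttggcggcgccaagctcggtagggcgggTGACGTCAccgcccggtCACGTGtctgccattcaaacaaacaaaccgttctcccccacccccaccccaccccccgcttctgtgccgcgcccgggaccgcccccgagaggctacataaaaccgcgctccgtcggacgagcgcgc
Btg2, chr1:134079156-134079405 on the minus strand, with a CRE at 166 to 159 bases and an EGR site at 131 to 123 bases: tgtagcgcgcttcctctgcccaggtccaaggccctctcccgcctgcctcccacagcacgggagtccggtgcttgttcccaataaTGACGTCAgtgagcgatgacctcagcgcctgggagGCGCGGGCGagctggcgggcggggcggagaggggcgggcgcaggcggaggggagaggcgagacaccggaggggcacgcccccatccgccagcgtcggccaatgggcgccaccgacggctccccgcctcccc
Dusp5, chr19:53528895-53529144 on the plus strand, with CArG boxes side by side at 82 to 73 and 72 to 63 bases: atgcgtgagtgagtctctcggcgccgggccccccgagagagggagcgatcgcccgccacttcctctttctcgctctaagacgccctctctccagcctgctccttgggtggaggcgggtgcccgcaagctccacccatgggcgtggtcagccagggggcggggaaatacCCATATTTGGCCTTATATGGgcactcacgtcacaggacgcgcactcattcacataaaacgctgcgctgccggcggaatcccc
Zfp36, chr7:28379229-28379478 on the minus strand, with an EGR site at 105 to 97 bases and a CArG box at 58 to 49 bases: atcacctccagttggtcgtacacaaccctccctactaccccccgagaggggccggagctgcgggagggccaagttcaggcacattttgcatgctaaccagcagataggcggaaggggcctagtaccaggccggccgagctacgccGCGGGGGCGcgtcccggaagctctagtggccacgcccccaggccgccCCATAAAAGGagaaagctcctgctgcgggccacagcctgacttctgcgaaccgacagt
Klf9, chr19:23140976-23141225 on the plus strand, with an AP-1 site at 89 to 83 bases: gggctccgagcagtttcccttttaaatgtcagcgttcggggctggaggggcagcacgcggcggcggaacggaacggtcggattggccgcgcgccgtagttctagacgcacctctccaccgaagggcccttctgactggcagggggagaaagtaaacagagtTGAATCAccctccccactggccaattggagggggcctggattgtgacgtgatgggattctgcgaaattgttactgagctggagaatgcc
Nfkbia, chr12:55492648-55492897 on the minus strand, with an NF-kappaB site at 29 to 20 bases: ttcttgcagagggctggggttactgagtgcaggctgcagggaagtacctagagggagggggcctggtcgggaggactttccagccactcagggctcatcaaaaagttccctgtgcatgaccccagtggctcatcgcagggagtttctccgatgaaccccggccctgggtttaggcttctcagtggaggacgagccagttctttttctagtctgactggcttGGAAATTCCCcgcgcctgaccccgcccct

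Promoters were listed for 31 of the 39 genes, 38 promoters in all because some genes have several starts. Egr1, Egr3, Fosl1, Klf10, Dusp4, Ier2, Myc and Arc had none listed and were not scanned. Sites more than 250 bases before a start were not looked for. EGR sites were found in 31.6% of these promoters, in 12 genes, against 4.70% of all 32851 promoters. CArG boxes were found in 15.8%, in Egr2, Dusp5 and Zfp36, against 1.47%, and 4 of the 6 promoters with one belonged to Egr2. Some of these 4 overlap and share a site, which was therefore counted more than once. By gene it was 3 of 31. A CRE was found in 7.89% against 1.55%, in Maff, Dusp1 and Btg2. The E-box was found in 23.7% against 6.02% and the NF-kappaB site in 13.2% against 5.00%. AP-1 sites were found in 2.63%, in Klf9 alone, against 6.75%. A match describes letters in a window and not a bound site, and the members' base composition was not matched to that of other promoters.

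Most members differed little between the arrays. Of 31 genes that entered, 19 were lower and 12 higher on the array labelled knockout, and 11 had a log2 ratio within 0.15 of 0. Over all 11671 genes that entered, 53.0% were lower and 47.0% higher. The median log2 ratio was -0.10 for the members and -0.03 for all genes, with members ranging from -0.70 for Dusp1 to 0.68 for Nfkbia once low signals were set to the floor. At least 1.5-fold lower were 3 members, Dusp1, Junb and Klf2, or 9.68%, where 6.26% of all genes were. At least 1.5-fold higher was Nfkbia alone, 3.23%, where 4.69% of all genes were. No member above the floor on both arrays reached 2-fold, and for Dusp5 only a bound of 1.30-fold lower could be given. A difference of 2-fold was reached by 0.883% of all genes as lower and by 0.591% as higher. Different probe sets of the same gene varied around their mean with an SD of 0.36 in log2 ratio, and 12 of 31 members, 8 lower and 4 higher, exceeded that size, or 38.7% against 30.5% of all genes. These shares lie near those of the whole array.

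**Figure D1:**
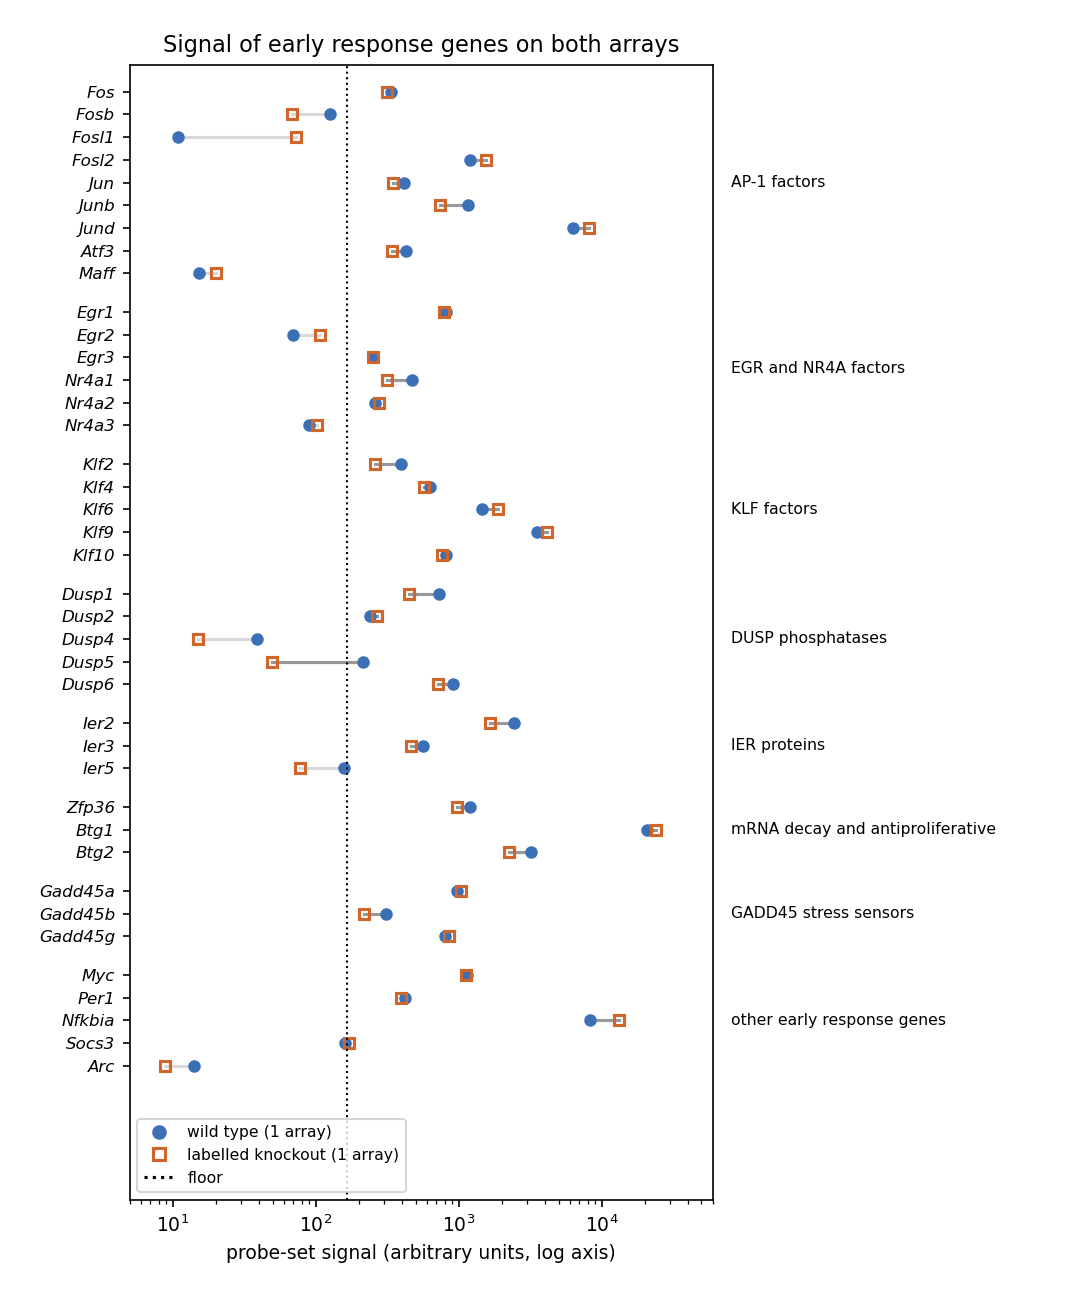
Signal of each of the 39 genes on both arrays, on a log axis in arbitrary units, ordered by role; filled circles are the wild-type array, open squares the array labelled knockout, and the dotted line is the floor of 166. Most pairs lie close together. Junb, Nr4a1, Klf2, Dusp1, Ier2, Btg2 and Gadd45b lie lower on the array labelled knockout, and Nfkbia lies higher. Dusp5 has a wide gap that crosses the floor. Wide gaps below the floor include that of Fosl1, higher on the array labelled knockout, and those of Fosb, Dusp4 and Ier5, lower on it.

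Members of AP-1, the dimeric factor built from FOS and JUN proteins, went both ways. Junb, a JUN protein often found to restrain proliferation, read 1166 in the wild type and 744.5 on the array labelled knockout, 1.57-fold lower (log2 ratio -0.65). Jund, the JUN protein of resting cells, read 6347 and 8204, 1.29-fold higher. Jun itself read 412 and 347 in one probe set and 207 and 350 in the other, opposite directions with log2 ratios of -0.25 and 0.76, both annotated to a RefSeq transcript. The 3 JUN genes therefore shared no direction. Among their partners, Fos read 338 and 314, a log2 ratio of -0.11 that turned to 0.01 under quantile normalization and under loess. Fosl2, which encodes FRA-2, read 1200.0 and 1565, 1.30-fold higher, while its second probe set read 298 and 303. Atf3, a stress-induced factor that also pairs with JUN proteins, read 427 and 340, 1.26-fold lower. The remaining AP-1 genes did not reach the floor on either array: Fosb read 126 and 68.1, Fosl1 10.8 and 73.0, and the small MAF gene Maff 15.3 and 19.9. The group's median was -0.18 over 6 genes, and -0.07 under both quantile normalization and loess.

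The zinc finger factors of the EGR family read nearly alike. Egr1, a classic target of ERK signalling, read 823 and 793, a log2 ratio of -0.05, and Egr3 read 251 and 252. Egr2, at 69.9 and 108, was below the floor on both arrays. The orphan nuclear receptors of the NR4A family, which are active without a ligand and controlled by how much of them is made, differed from each other. Nr4a1, which encodes NUR77, read 474 and 318, 1.49-fold lower, in a single probe set. Nr4a2 read 259 and 278, with log2 ratios from 0.01 to 0.38 in 3 other probe sets that reached the floor, so that 4 of 4 pointed up by small amounts. The ratio of 0.38 is a bound, from signals of 156 in the wild type, below the floor, and 217. Nr4a3 was below the floor, at 90.1 and 102. The median of the 4 EGR and NR4A genes that entered was -0.02, and it was 0.000533 after median centring, 0.06 under quantile normalization and 0.05 under loess.

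In the Krüppel-like factors, DNA-binding regulators of growth arrest and differentiation, 3 of 5 genes were lower and 2 higher, from Klf2 at -0.59 to Klf6 at 0.39. Klf2, best known from quiescent endothelium and T cells, read 393 and 261, 1.51-fold lower, in a single probe set. Klf9, a hormone-responsive member, read 3531 and 4175 in its brightest probe set, 1.18-fold higher. Its 3 other probe sets above the floor gave larger ratios: 1051 and 1783, 690 and 1623, and 170 and 231, which are 1.70-, 2.35- and 1.36-fold higher. With the median over probe sets the log2 ratio of Klf9 was 0.60, past 1.5-fold. The probe set at 690 and 1623 had no accession listed. That at 170 and 231, the only one annotated to a RefSeq transcript, was close to the floor. Both had names with a suffix that marks probes that may match several transcripts, of the same gene or of others. Klf6 read 1448.5 and 1898, 1.31-fold higher, and its other 4 probe sets split evenly, with log2 ratios from -0.26 to 0.42. Klf4, an epithelial differentiation factor, read 632 and 575, and 336 and 258 in a second probe set, lower in both. Klf10, a TGF-beta early gene, read 812 and 763, a log2 ratio of -0.09.

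The signal-terminating phosphatases, which remove phosphate from MAP kinases, were lower in 3 of 4 genes that entered, where 53.0% of all genes were. All 4 had 1 probe set above the floor, and 59.7% of all such genes were lower. Their median was -0.35, which rests in part on the bound for Dusp5. Dusp1, which acts on p38, JNK and ERK in the nucleus, had the lowest ratio of the members above the floor on both arrays. It read 724 in the wild type and 447 on the array labelled knockout, a 1.62-fold difference in a single probe set. Dusp5, an ERK-specific nuclear phosphatase whose promoter holds a pair of CArG boxes, read 216 and 49.3, the second value being below the floor, and so was at least 1.30-fold lower. With no floor its log2 ratio was -2.13. Dusp6, the cytoplasmic ERK phosphatase, read 908 and 723, 1.26-fold lower. Dusp2 read 240 and 270, a log2 ratio of 0.17, and Dusp4 was below the floor at 38.9 and 15.1.

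Of the genes of small IER proteins that entered, 2 of 2 were lower, and of the mRNA decay and antiproliferative genes 2 of 3. Over all genes 53.0% were lower. Ier2, which encodes a nuclear protein, read 2433 and 1668, 1.46-fold lower, and Ier3, a modulator of cell death, read 564 and 467, 1.21-fold lower. Ier5 was under the floor on both arrays, at 158 and 77.9. Zfp36 encodes tristetraprolin, which binds AU-rich mRNAs and speeds their decay. It read 1198 and 979, 1.22-fold lower. Btg2, an antiproliferative p53 target, read 3194 and 2236 in one probe set and 3121 and 1630 in the other, 1.43- and 1.91-fold lower, both annotated to a RefSeq transcript. It was the only member more than 1 SD below 0 in at least 2 probe sets. Its relative Btg1 went the other way in its bright probe sets, 20797 and 24039 in one and 17809 and 21316 in another, while its dimmest probe set read 893 and 668. With suffixed probe sets left out, whose probes may match several transcripts of the same gene or of others, the log2 ratio of Btg1 was -0.42.

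The GADD45 genes, small stress proteins linked to growth arrest and p38 activation, differed little apart from Gadd45b. Gadd45a read 976 and 1036 and Gadd45g 803 and 850, log2 ratios of 0.09 and 0.08. Gadd45b read 310 and 216, 1.43-fold lower, but 184 and 230 in another probe set and 202 and 200.1 in the last. Myc, the growth regulator, read 1144 and 1128, a log2 ratio of -0.02 that was 0.01 after median centring. Per1, a repressor of the circadian clock that glucocorticoids also induce, read 424 and 396. Socs3, the feedback inhibitor of cytokine receptors, read 160.4 and 170.4, so close to the floor that only a bound of 1.03-fold higher could be given. Arc, an immediate-early gene of neurons, was below the floor at 14.1 and 8.84.

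Nfkbia encodes IkappaB-alpha, the inhibitor that NF-kappaB itself induces, and was the highest member. It read 8259 and 13226, 1.60-fold higher. Of its other 4 probe sets, 3 were higher as well, at 1598 and 2084, 1380 and 2027, and 599 and 1034, which are 1.30-, 1.47- and 1.73-fold. The fourth read 895 and 787, 1.14-fold lower. That probe set was the only Nfkbia probe set with an accession listed, a RefSeq transcript, and the 4 higher ones had none. The direction of Nfkbia therefore rests on which probe set is taken.

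How many probe sets a gene had went along with the direction. Among 21 members with 1 probe set above the floor, 15 were lower, 71.4%, where 59.7% of all such genes were lower. Among the 10 members with several, 4 were lower, 40.0%, where 44.7% of all such genes were. The medians were -0.11 and 0.15 for the members and -0.07 and 0.05 for all genes of the same kinds. In 5 of these 10 members every probe set above the floor pointed the same way: Klf4 and Btg2 as lower, Fosl2, Nr4a2 and Klf9 as higher. The other 5, Jun, Klf6, Btg1, Gadd45b and Nfkbia, had at least 1 probe set pointing the other way.

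Members with the same promoter motif did not all share a direction. Dusp1 and Btg2, whose promoters hold a CRE, were both lower, with log2 ratios of -0.70 and -0.51, while Maff did not enter. Over the 279 genes of the array that entered and had a CRE, the median log2 ratio was -0.00203 and 50.5% were lower. Dusp5 and Zfp36, with CArG boxes, were lower too, at -0.38, a bound, and -0.29. The 142 such genes of the array had a median of -0.04, and 57.7% were lower. Of 10 members with an EGR site that entered, 6 were lower and 4 higher, with a median of -0.21. Over 981 such genes the median was 0.03, and 46.2% were lower. Members with an E-box were lower in 4 of 7, with Per1 at -0.10 and Dusp1 the lowest, where 51.3% of 937 such genes were lower. Of the 3 with an NF-kappaB site that entered, Nfkbia and Fosl2 were higher and Fos was lower, where 54.2% of 670 such genes were lower.

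Genes that lie upstream of the members went both ways. Among 13 measured genes of the ERK cascade and ternary complex, 5 were lower and 8 higher, with a median of 0.06. Past 1.5-fold, 0 were lower and 3 higher, where 6.26% of all genes were lower and 4.69% higher. Srf, the factor that binds CArG boxes, named here after its values were seen, read 486 and 506 in a probe set whose only companion had a log2 ratio of -0.61. The ETS factor Elk3 read 529 and 365 (log2 ratio -0.54) and the SRF coactivator gene Mrtfa 453 and 341 (-0.41). Highest were the kinase genes Braf, 1089 and 3046 (1.48), and Map2k2, 347 and 557 (0.68). However, 5 of the 7 other Braf probe sets and the other Map2k2 probe set pointed down. Also past 1.5-fold was the kinase gene Rps6ka5, named after its values were seen. It read 198 and 301, with its other probe set at -0.07. Genes of stress kinases, CREB and NF-kappaB split into 8 lower and 8 higher, with a median of -0.00105. Their lowest were Mapkapk2, the p38-activated kinase, at -0.54 and the coactivator gene Crebbp at -0.40. Their highest were the IkappaB kinase gene Ikbkb at 0.66, which read 709 and 1120, and Map2k4 at 0.43, with an opposite probe set for Crebbp, Ikbkb and Map2k4.

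Related and downstream genes were as mixed. Among 13 measured AP-1 partners and bZIP relatives, 6 were lower and 7 higher, with a median of 0.09, from Mafg at -0.49 and Atf7 at -0.35 to Maf at 0.28 and Cebpg at 0.42. Mafg and Cebpg each had an opposite probe set, at 0.29 and -0.11. Paralogs of the members split into 10 lower and 10 higher, with a median of -0.01. Socs2, a brake on growth hormone signalling, read 415 and 189, 2.19-fold lower, and Klf7 read 944 and 535, 1.76-fold lower, each with 1 of 2 other probe sets opposite. The phosphatase genes Dusp16 and Dusp3 were higher, at 0.62 and 0.53, Dusp3 with an opposite probe set. AP-1 target genes, 4 lower and 4 higher, had a median of -0.05, from the gelatinase gene Mmp9 at -0.42 and the metallothionein gene Mt1 at -0.29, whose other probe set was at 0.12, to the cyclin gene Ccnd1 at 0.15 and the urokinase receptor gene Plaur at 0.47.

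Other stimulus-induced genes, 26 of them measured, also split evenly, 13 lower and 13 higher, with a median of -0.00767. The survival gene Mcl1, whose protein is short-lived, read 9655 and 24560, 2.54-fold higher, with 5 of 5 other probe sets higher by as little as a log2 ratio of 0.02. Spry2, an inhibitor of receptor tyrosine kinase signalling that ERK induces, read 1984 and 3027, 1.53-fold higher. The heat shock gene Hspa1b read 7768 and 5338, 1.46-fold lower with 2 of 2 other probe sets lower, and Id3, a helix-loop-helix inhibitor, read 242 and 167, 1.45-fold lower. Past 1.5-fold, 4 genes of the list were higher and 0 lower, where 4.69% of all genes were higher and 6.26% lower. Over the 7 lists of related genes together, 11 of 111 measured genes passed 1.5-fold as higher and 2 as lower, while 59 had a ratio above 0 and 52 below. Among those higher, Braf, Map2k2, Rps6ka5, Ikbkb, Per3 and Spred2, the last named after its values were seen, had a probe set pointing down. Both lower ones, Socs2 and Klf7, had a probe set pointing up.

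Clock and glucocorticoid response genes had a median of 0.20 over 15 genes, 9 of them higher and 6 lower, and of 0.10 under loess. Per3 read 666 and 1124, 1.69-fold higher with 1 of 3 other probe sets opposite, and Cry1 read 379 and 585, 1.54-fold higher. Lowest were Hlf at -0.26, with an opposite probe set, and Clock at -0.21, with 1 of 3 other probe sets opposite. Singled out after their values were seen, Per2, Cry2, Ciart, Dbp and Nr1d2 had log2 ratios from 0.42 to 0.52. However, Per2 had an opposite probe set at -0.35 and the other Dbp probe set was at 0.00329. Going the other way, Bmal1 had -0.16, Nr1d1 -0.34 and Tef -0.11, Tef with 2 of 2 other probe sets lower. Of the early response members that share these inputs, Per1 had -0.10 and Klf9 0.24. The glucocorticoid-induced genes Fkbp5 and Tsc22d3, named after their values were seen, had -0.05 and 0.16. The other Fkbp5 probe set was at -0.47, and 1 of 3 other Tsc22d3 probe sets was opposite. The labels do not give the time of day at which tissue was taken.

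Markers of smooth muscle and fibroblasts were also lower on the array labelled knockout. Smooth muscle markers were lower in 9 of 10 genes, with a median of -0.54 and summed signals of 53736 in the wild type and 39712 on the array labelled knockout. Fibroblast markers were lower in 9 of 9, with a median of -0.47 and sums of 26145 and 21352. Endothelial markers were lower in 5 of 8, with a median of -0.06, which was 0.02 under quantile normalization and 0.03 under loess, and sums of 2784 and 2474, Pecam1 being below the floor at 120 and 126. Macrophage markers were lower in 5 of 8, with a median of -0.15 and sums of 5853 and 5431. Their part in the lower signals of Junb, Dusp1, Dusp5, Klf2, Nr4a1, Ier2, Btg2 and Gadd45b was not tested. Nor was that of RNA integrity, for which Actb gave 1.65 against 1.25 and Gapdh 0.85 against 0.71. In whole tissue, fewer cells of a type and less RNA per cell cannot be told apart. Urothelial markers were lower in 3 of 4, with a median of -0.54 and sums of 6703 and 4804. Adipocyte markers were higher in 3 of 4, with a median of 0.73 and sums of 1194 and 2876. The seminal vesicle markers Svs2, Svs4, Svs5 and Svs6 were all below the floor on both arrays. Of the lymphocyte markers Cd3e, Cd3g, Cd79a and Cd79b were, whereas Ptprc, of all leukocytes, read 256 and 322 and Ms4a1 239 and 232. Krt14 of basal cells was below the floor, while Trp63 and Krt15 were above it and Krt5 read 772 and 504. S100b of glia and Hba-a1 of red cells were below it, while Gfap read 181 and 255 and Alas2 352 and 268.

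The group's small shift kept its direction under 10 other settings of scaling, floor and probe set, but its distance from the other genes varied. Its median ranged from -0.11 to -0.04. With the median over probe sets it was -0.05 for the members and -0.06 for all genes, so that the members no longer lay lower. Junb and Dusp1 were at least 1.5-fold lower in all 10 settings. Klf2 fell short of it after median centring, quantile normalization or loess and with a pseudocount, and was too dim for the floor at the 70th percentile. Under loess, Ier2 and Btg2 also passed 1.5-fold.

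**Figure D2:**
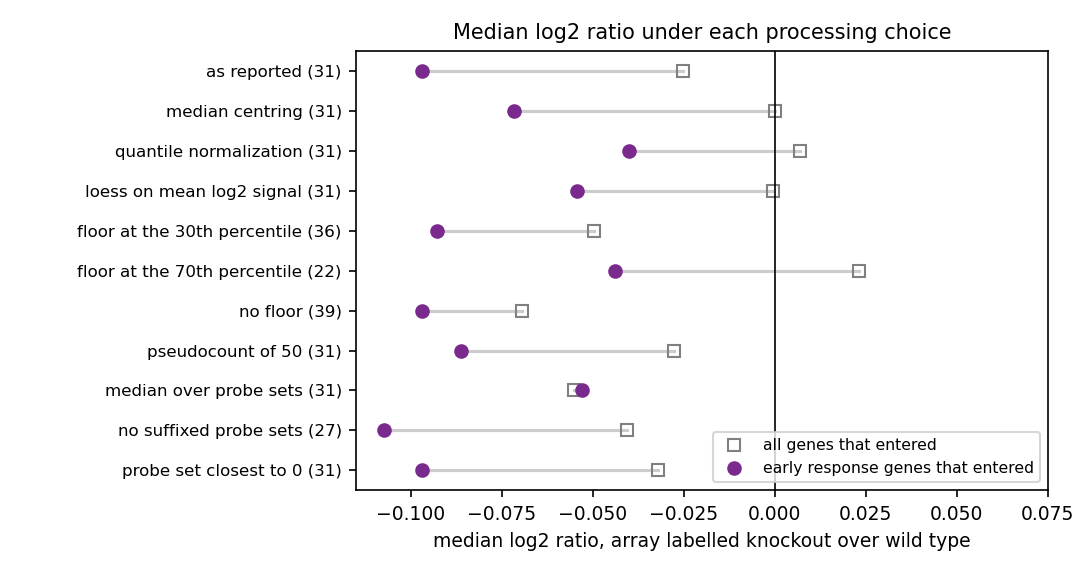
Median log2 ratio, array labelled knockout over wild type, of the early response genes (filled circles, number of genes in brackets) and of all genes (open squares) as reported and under 10 other settings. The circles lie below 0 throughout and to the left of the squares in each setting but the median over probe sets.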

How the data were processed

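Total RNA of 2 ventral prostate samples, 1 per genotype, was hybridised to 2 arrays of 45101 probe sets. The authors deposited linear signal intensity values, made with GCOS 1.4 per the submitters' processing notes, which name no settings. Both arrays had the same mean signal, 500.0, after the highest and lowest 2% were trimmed. The median signal was 177 in the wild type and 154 on the array labelled knockout. Of 45037 probe sets that were not controls, 34945 had 1 gene symbol, 932 several and 9160 none, and 34741 of those with 1 were matched by Entrez ID to a gene table of GRCm38.p6, used for names.

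The log2 ratio is that of the array labelled knockout over the wild-type array, with a floor of 166, the 50th percentile over both arrays' non-control probe sets. Calls used 1.5-fold, with no test, as each group had 1 array. The number of arrays limits the precision, and the SD between probe sets (0.36), pooled within 4497 genes, leaves out variation between animals. All members were named, and in each list of related genes the 2 highest and 2 lowest. One list name was found through a synonym. The members and lists were chosen with earlier results of these data known. Alternatives were median centring, quantile normalization, loess (span 0.4), floors at the 30th and 70th percentiles or none, a pseudocount of 50, 3 other choices of probe set and thresholds of 1.2- and 2-fold. Calculations in Python 3.11.15 (numpy 2.4.6, pandas 2.3.3, statsmodels 0.14.6) were tested on simulated data.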

Additional observations from a re-analysis of the deposited data

How the results depend on the processing

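Values moved by less than the SD between probe sets were taken as the same. The members' median was below 0 in all 10 alternatives of scaling, floor and probe set, from -0.11 to -0.04, and the counts of lower and of higher members stayed within 1.5 times. Counts past the threshold moved more. At 2-fold, 0 members were lower, with Dusp5 at its bound, and 0 higher, and at 1.2-fold, 12 and 4. At 1.5-fold, with the floor at the 30th percentile, 6 were lower and 2 higher, where 12.04% and 6.29% of all genes were. With no floor 8 were lower and 3 higher, where 19.1% and 10.6% were. Dim genes entered there, and the bound on Dusp5 was lifted. With the probe set closest to 0, 0 were higher. Of the 31 members, 25 kept their sign in every alternative that gave a value, 16 lower and 9 higher. The exceptions were Fos, Jun, Klf6, Btg1, Myc and Nfkbia. Among named genes past 1.5-fold, the sign reversed with the probe set closest to 0 for Nfkbia (-0.19), Map2k2 (-0.10), Braf (-0.00401), Klf7 (0.22) and Per3 (-0.0278), with the median over probe sets for Braf (-0.0348), and under quantile normalization for Map2k2 (-0.0181). The choice of probe set made the difference in the first 6 cases. In the last, the brightest probe set was chosen anew after quantile normalization, and the one taken was not recorded. Under loess, which kept the probe set, Map2k2 was at 0.76, and its other probe set was at -0.10 as reported. Signals near the floor could not be told from background. No paired analysis was possible because each group held 1 sample.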
